A study of Mus musculus with 17 samples.

Results

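The genes described here encode ion channels and their accessory subunits. They are the 55 probe sets, of 49 genes, whose single annotated symbol starts with Kcn, Cacn, Clcn, or Scn or Hcn plus a digit. Of them 33 are on chip A and 22 on chip B of a mouse oligonucleotide array set, which together held 13069 probe sets. In all, 6137 genes were named by at least 1 probe set of their own. The members are potassium channel subunits (35 probe sets), calcium channel subunits (8), sodium channel pores (7) and chloride channels and exchangers (5). No probe set of an Hcn gene, a sodium channel beta subunit or a Kcnip gene was among them. The rule is wider than voltage gating, since inward rectifiers (Kcnj) and 2-pore channels (Kcnk) lack a classical voltage sensor and several Clcn proteins exchange chloride for protons inside cells.

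Ion channels set the resting potential, the shape of the action potential and the release of transmitter. Sodium channels drive the upstroke of the spike, potassium channels end it and set the firing rate, and calcium channels couple depolarisation to transmitter release and gene expression. Hippocampal neurons carry many of these channels, whereas hepatocytes do not fire action potentials. Polyunsaturated fatty acids such as arachidonate and docosahexaenoate are known to act on several of these proteins directly.

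RNA came from liver and hippocampus of male Rj:NMRI mice, an outbred stock, that ate purified powdered diets from day 1 until death on day 57 or 58. The control diet contained neither test oil. In the other diets part of its medium chain triacylglycerol oil gave way to 1.1% fungal oil, which supplied 0.5% arachidonate by weight of diet, to 1.9% fish oil, which supplied 0.5% docosahexaenoate, or to both oils. Each diet was given to 10 mice, 10 to a cage, and 5 per diet were selected, so cage cannot be told apart from diet. How the tissue of the 5 mice was combined is not given in the sources used here. There was 1 hippocampus RNA per diet. For liver, labelled as hepatocytes, there were 2 RNAs on the control diet and 1 on each other diet. The chip A array of the hippocampus RNA from the diet with both oils is not analysed here, and every other RNA had both chips. The deposited values are intensities, 1 per probe set and array and in part negative, and the labels do not say that separate animals gave the 2 control liver RNAs, so that p-values measure only the spread between these samples, which may be technical.

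The 17 arrays had been scaled alike, with trimmed means of 146.1 to 149.4 over the probe sets used here. Between 28.3% and 42.4% of values per array lay below 15, the floor to which lower values were raised before taking log2. The labelled tissues carried their markers. All 9 kept neuron markers were called higher in hippocampus and all 6 kept hepatocyte markers lower, beside 31.0% and 19.4% of all fitted probe sets. Markers dim in 1 tissue passed the filter through the other and had to differ, so these counts are no test of the labels. The neuronal kinase gene Camk2a was dim even in hippocampus, at 100, 41, 6 and 19. Gapdh probe sets at the 3-prime end read 0.840 to 0.947 times those at the 5-prime end on hippocampus arrays and 1.89 to 3.26 times on liver arrays. The hippocampus range lacks the chip B fish oil array, which gave no ratio. The part of this ratio in the tissue differences was not tested. The array titles also carry a different suffix for each tissue, so any difference in handling cannot be told apart from tissue.

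Channel probe sets read above the floor more often in hippocampus than in liver, as did probe sets in general. In hippocampus 34 of the 55 probe sets read above the floor on every array, 9 on some arrays and 12 on none. In liver the numbers were 17, 17 and 21. Over all probe sets, 58.3% read above the floor on every hippocampus array and 49.3% on every liver array. Of the channel probe sets, 14 were above the floor on every array of both tissues, 12 on every hippocampus array and no liver array, and 6 on no array at all. None was above the floor on every liver array and no hippocampus array. The same split over all probe sets was not counted, so 12 against 0 is no result about channels. The rule is also stricter in liver, with 5 arrays per chip against 3 or 4 in hippocampus. The 6 at or below the floor throughout were the potassium channels Kcna5, Kcnj5, Kcnj2 and Kcnk3, the calcium channel subunit Cacnb2 and the embryonic sodium channel Scn3a.

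**Figure D1:**
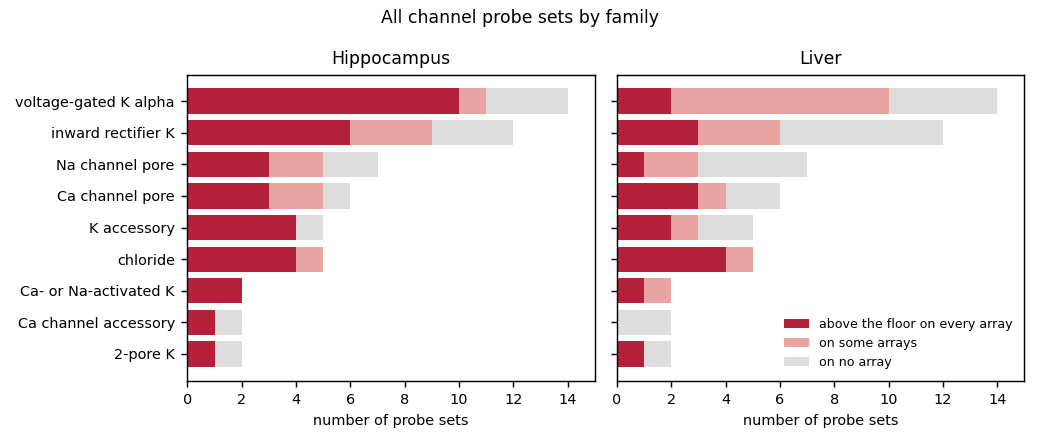
Number of channel probe sets in each family (horizontal axis) that read above the floor intensity of 15 on every array, on some arrays or on no array of hippocampus (left) and liver (right). Of the 14 voltage-gated potassium alpha subunit probe sets, 10 were above it on every hippocampus array and 2 on every liver array.

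Regulatory sequence is shown for 3 genes called higher in hippocampus, whose windows had unlike composition, and for 1 called higher in liver. The windows run from 250 bases before to 50 bases after the most upstream start that RefSeq lists for the gene (GRCm38.p6), 5′ to 3′ on the gene's strand. Capitals mark the GC box GGGCGG or its reverse complement. The arrays do not show which start was used. Kcnab2, at chr4:152477500-152477799 on the minus strand, encodes a beta subunit of Kv1 potassium channels. Kcnma1, at chr14:24004156-24004455 on the minus strand, encodes the pore of the large-conductance calcium-activated potassium channel. Kcnj9, at chr1:172329273-172329572 on the minus strand, encodes GIRK3, a G-protein-activated inward rectifier. Clcn7, at chr17:25133141-25133440 on the plus strand, encodes a lysosomal chloride-proton exchanger and was higher in liver.
Kcnab2: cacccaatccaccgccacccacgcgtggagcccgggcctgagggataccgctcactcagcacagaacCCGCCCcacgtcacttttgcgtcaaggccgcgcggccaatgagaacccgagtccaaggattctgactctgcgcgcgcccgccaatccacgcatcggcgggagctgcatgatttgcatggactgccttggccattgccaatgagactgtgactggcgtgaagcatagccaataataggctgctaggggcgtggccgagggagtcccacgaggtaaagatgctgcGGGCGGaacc
Kcnma1: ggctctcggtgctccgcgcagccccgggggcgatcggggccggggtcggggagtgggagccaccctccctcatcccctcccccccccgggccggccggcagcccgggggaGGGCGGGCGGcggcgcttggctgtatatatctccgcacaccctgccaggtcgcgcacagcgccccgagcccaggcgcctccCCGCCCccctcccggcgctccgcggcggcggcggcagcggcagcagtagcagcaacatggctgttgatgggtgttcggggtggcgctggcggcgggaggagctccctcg
Kcnj9: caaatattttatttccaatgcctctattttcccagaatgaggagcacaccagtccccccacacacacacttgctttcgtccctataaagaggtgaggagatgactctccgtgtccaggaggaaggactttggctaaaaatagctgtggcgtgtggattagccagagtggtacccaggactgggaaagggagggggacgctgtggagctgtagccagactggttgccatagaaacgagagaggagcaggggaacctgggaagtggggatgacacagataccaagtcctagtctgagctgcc
Clcn7: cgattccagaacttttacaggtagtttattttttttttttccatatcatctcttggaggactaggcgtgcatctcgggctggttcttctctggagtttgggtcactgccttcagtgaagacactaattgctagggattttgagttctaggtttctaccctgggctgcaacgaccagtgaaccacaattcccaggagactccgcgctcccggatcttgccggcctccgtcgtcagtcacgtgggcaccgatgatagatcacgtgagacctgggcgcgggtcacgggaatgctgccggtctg

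The Kcnma1 window is 78.0% G and C, with 36 CpG dinucleotides and 3 GC boxes, of which 2 overlap. The Kcnab2 window has 25 CpG dinucleotides and 2 GC boxes. Kcnj9, called higher in hippocampus like both of them, has 5 CpG dinucleotides, no GC box and 1 TATAAA. The Clcn7 window has 17 CpG dinucleotides and neither a GC box nor a TATAAA. Of the 49 channel genes 39 had a window, and 22 of these (56.4%) held a GC box on either strand, against 46.3% of 17492 protein-coding genes. TATAAA on either strand was in 5.13% of channel windows and 13.3% of all. The left and right sites of the RE1 element, through which the repressor Rest silences neuronal genes elsewhere, were searched on both strands as CAGCACC and GGACAGC. Each occurred in 5.13% of channel windows, against 7.15% and 6.81% of all, and in 0 of the 10 windows of genes called higher in hippocampus. A match or its lack describes these windows only.

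Hippocampus and liver were compared to see which channels mark the neural tissue. Tissue and diet were fitted together with limma on 8 chip A and 9 chip B arrays. Only probe sets whose average over both tissues reached the median of their chip were fitted, which left 19 of the 55 members. Of these, 12 probe sets of 11 genes were called higher in hippocampus and 2 lower, by a Benjamini-Hochberg adjusted p below 0.05 together with a 2-fold change or more. Among all 6535 probe sets fitted, 31.0% were called higher and 19.4% lower. Dim probe sets that pass such a filter through 1 tissue have to differ, so the 12 of 19 gives no support to a general rule about channels. In bulk tissue, fewer cells of a type and less RNA per cell cannot be told apart.

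Pores and beta subunits of voltage-gated potassium channels were among the genes with clear hippocampus signal and liver values at the floor. Their differences are lower bounds and have no order. Kcnab2 read 711, 817 and 781 in hippocampus with control, fungal oil and fish oil, and between -70 and -45 in the 5 liver arrays. It was thus at least 51.1-fold higher in hippocampus (log2 difference 5.67, SE 0.17, limma adjusted p = 9.47e-07). Kcnab1, a beta subunit that can give Kv1 channels fast inactivation, read 306, 319, 260 and 285 in hippocampus with control, fungal oil, fish oil and both oils, and at most 13 in liver. Its difference was at least 19.6-fold. Kcna1, the axonal channel Kv1.1 with which both beta subunits assemble, read 595, 475, 456 and 533 in hippocampus and -69 to -30 in liver, at least 34.5-fold higher (5.12, SE 0.20). Kcnd2, the dendritic A-type channel Kv4.2, read 204, 230 and 218 in hippocampus and at most 14 in liver, at least 14.4-fold higher (3.85, SE 0.16). For all 4 genes every liver array lay at or below the floor. They passed the filter through hippocampus alone and had to differ, so the adjusted p is no further evidence. With every liver value raised to 15, the standard errors hold no spread between liver arrays. These bounds scale with the floor of 15 and shrink in proportion at a higher one.

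Kcnma1 read 588, 574 and 534 in hippocampus, and 7 to 39 in liver, a log2 difference of 4.79 (SE 0.28, adjusted p = 1.76e-05) that fell to 3.93 at 2.5 times the floor. Kcnj9 read 144, 163 and 174 against at most 4 in liver, at least 10.6-fold higher. Kcnma1 and Kcnj9 also passed the filter through hippocampus alone, with liver means of 22.8 and -10.8, and so had to differ. The lymphocyte and neuronal channel Kcna3 (Kv1.3) had signal in both tissues, 257, 356, 306 and 421 in hippocampus and 57 to 167 in liver, a log2 difference of 1.68 (SE 0.36, adjusted p = 0.00474). A second probe set of Kcna3 read no higher than 28 on any array.

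Both sodium channel probe sets bright enough for the fit were called higher in hippocampus, beside 31.0% of all fitted probe sets. Both, Scn8a and Scn1a, passed the filter through hippocampus alone, with liver means of -8.2 and 12.6. They had to differ, so this count says nothing about the family. Scn8a, the channel Nav1.6 of the axon initial segment, read 106, 179 and 181 in hippocampus and below 0 in every liver array, at least 9.75-fold higher (3.29, SE 0.22, adjusted p = 2.94e-05). Scn1a, or Nav1.1, whose loss causes epilepsy and which is prominent in interneurons, read 122, 159, 123 and 147 on chip B in hippocampus and -3 to 27 in liver (2.89, SE 0.31, adjusted p = 0.000140). Only 2 of its 5 liver arrays were above the floor, and the difference was 1.87 at 2.5 times the floor and 3.43 at 0.5 times. Its chip A probe set, too dim for the fit, read 36, 55 and 54 against -31 to -10, again without overlap. Scn9a and Scn10a, known from peripheral sensory neurons, and Scn7a were dim in hippocampus, with means of -1.33, 14.8 and 7.33. Scn7a, an atypical sodium channel, read 24, 2 and -4 in hippocampus and 25 to 44 in liver.

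Of the chloride family 4 of 5 probe sets were fitted, 2 of them of the same gene, Clcn4. All 4 were called, 3 of them higher, beside 31.0% higher and 19.4% lower among all fitted probe sets. So few probe sets give no result about the family. Clcn3, an endosomal and synaptic vesicle exchanger, read 567, 565, 629 and 544 in hippocampus and 111 to 191 in liver (1.89, SE 0.17, adjusted p = 5.92e-05). Its relative Clcn4 read 272, 338 and 346 against 80 to 142 on chip A (1.46, SE 0.24) and 454, 432, 413 and 400 against 175 to 218 on chip B (1.10, SE 0.13), both called. Under quantile normalization the chip B difference shrank to 0.81, below 2-fold. Clcn7 went the other way, with 25, -29, 27 and 44 in hippocampus and 68 to 157 in liver (-2.13, SE 0.37, adjusted p = 0.00158). It passed the filter through liver alone, with a hippocampus mean of 16.75, and so had to differ. Its difference was -1.55 at 2.5 times the floor. Clcn6, a late endosomal exchanger, was too dim for the fit.

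Kcnj11, the Kir6.2 pore of ATP-sensitive potassium channels, was the other member called lower in hippocampus. It read 54, 84 and 102 there and 299 to 361 in liver, a log2 difference of -2.12 (SE 0.22, adjusted p = 0.000254). The second Kcnj11 probe set, on the same chip, read -11, 32 and 58 in hippocampus and below 0 in every liver array. So the liver signal of Kcnj11 rests on 1 of 2 probe sets.

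Of the 19 members fitted, 5 were not called. Kcnd1 (Kv4.1) read 115 to 157 in hippocampus and 49 to 117 in liver. Its adjusted p of 0.0376 in the limma fit belonged to a difference of 0.81, under 2-fold. Kcnn1, a small-conductance calcium-activated channel, read 534 to 612 in hippocampus and 442 to 602 in liver (0.13, SE 0.11, adjusted p = 0.317). Kcnab3, a further beta subunit, read 102 to 181 and 46 to 147 (0.50, SE 0.40, adjusted p = 0.303). Kcne1, an accessory subunit that slows the cardiac channel Kcnq1, read 150 to 171 and 174 to 243 (-0.40, SE 0.15, adjusted p = 0.0509). The standard errors leave room for differences of either sign in Kcnn1 and Kcnab3.

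**Figure D2:**
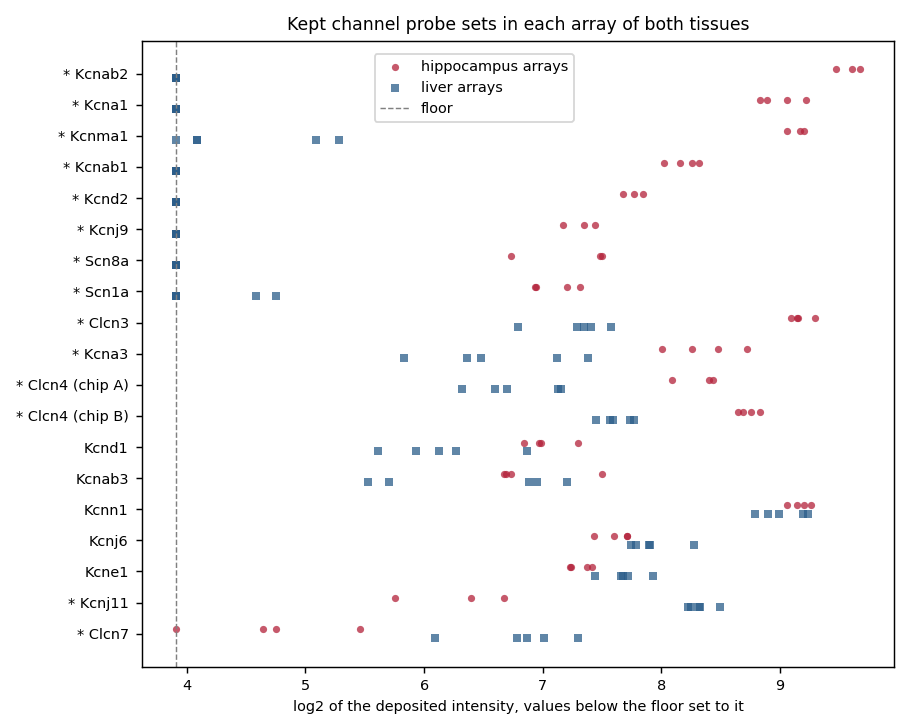
The 19 channel probe sets bright enough for the comparison of tissues, with each array's log2 intensity (horizontal axis) in hippocampus (circles) and liver (squares). Stars mark the 14 called, of which 12 lie higher in hippocampus and Kcnj11 and Clcn7 lie lower.

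A count without filter or fit covers every member, again with values below 15 raised to that floor, so that differences below it are not read. In 20 of 55 probe sets (36.4%) every hippocampus array lay above every liver array, and in 6 (10.9%) every liver array lay above, against 25.6% and 16.2% of all probe sets. Beside the called members, the 20 included Cacna1a, the P/Q-type calcium channel of transmitter release, with 113, 70, 68 and 58 in hippocampus and -246 to -131 in liver. They also held Cacna2d1, the alpha2delta-1 subunit, with 71, 62 and 74 against -40 to -3, and Kcnh2 (ERG1) with 49, 64 and 82 against -1 to 22. Kcnj4 (Kir2.3), Kcna2 (Kv1.2) and the silent subunit gene Kcns2 were dim members of the same kind. Among the 6 higher in liver was Cacna1d, an L-type calcium channel, with -60, 35 and 50 in hippocampus and 68 to 103 in liver. Other calcium channel pores overlapped between the tissues or were near the floor. Cacna1b, the N-type channel, read 70, 47 and 62 in hippocampus and 36 to 79 in liver. The muscle channel Cacna1s stayed at or below 21. Cacna1e read 24, 12 and 26 in hippocampus and -40 to 3 in liver, with 1 hippocampus array under the floor. The GIRK1 gene Kcnj3 read 68 to 78 in hippocampus and 26 to 73 in liver. Kcnh1, Kcns1, Kcnq1, Kcnj8 and Kcnmb1 were dim and overlapped between the tissues.

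Probe sets of the same gene did not always point one way. Kcnj6 (GIRK2) was measured by 2 probe sets whose tissue order was opposite, each without overlap. On chip A (u51126_at) it read 30, 21 and 43 in hippocampus and -37 to 1 in liver, and on chip B 173, 209, 194 and 209 in hippocampus and 214 to 309 in liver. The chip B difference was -0.35 (SE 0.14, adjusted p = 0.0603). Scn1a and Clcn4 kept their direction on both chips, and both Kcnj12 probe sets were near or below the floor. Of the 55 probe sets 34 have names ending in _s_at, which by the maker's convention may hybridise to more than 1 related transcript. Which probe set of Kcnj6 or Kcnj11 follows its gene was not tested.

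**Figure D3:**
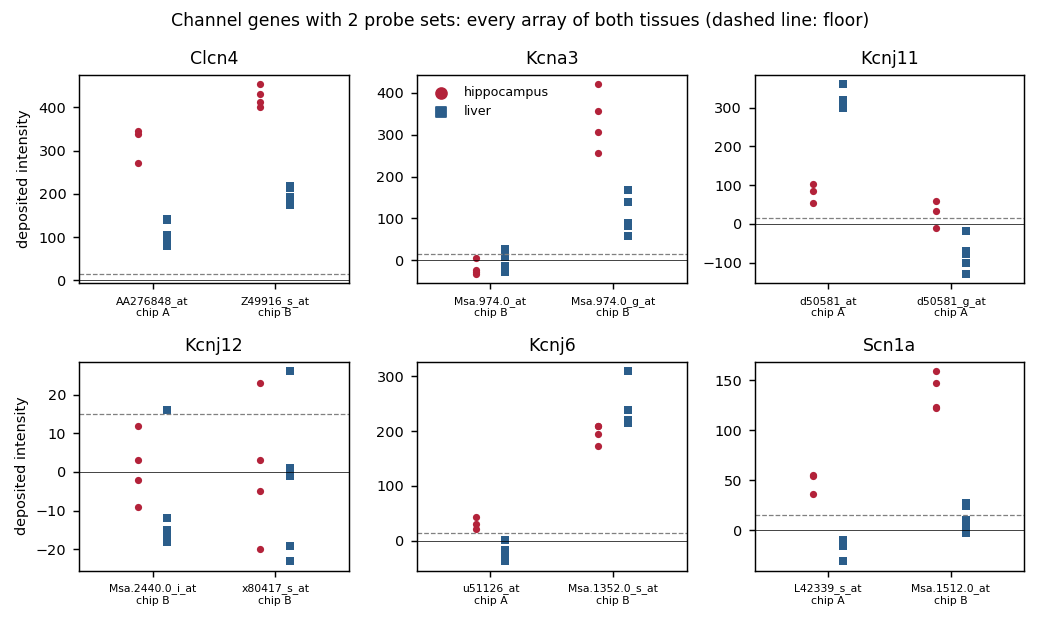
Deposited intensity (vertical axis, different scale in each panel) of the 6 channel genes with 2 probe sets, in each hippocampus (circles) and liver (squares) array. The tissues stand in opposite order on the Kcnj6 probe sets and on the Kcnj11 probe sets.

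Some members lie side by side in the genome. By RefSeq gene order, Scn1a, Scn9a and Scn7a are consecutive protein-coding genes on mouse chromosome 2, Kcna3 and Kcna2 on chromosome 3, and Kcna5, Kcna1 and Kcna6 on chromosome 6. Within the Scn group only Scn1a had clear signal. Every Scn1a array of hippocampus lay above liver. Every Scn7a array lay below, but by as little as 24 against 25. Scn9a was at or below 6 in hippocampus and at 12 to 22 in liver, and overlapped once values were raised to the floor of 15. So near the floor, the order of Scn7a and Scn9a is not firm. In the Kcna1 group, Kcna1 separated the tissues, Kcna5 was below the floor on every array, and Kcna6 was higher on average in hippocampus but overlapped, with 67, 53 and 39 in hippocampus and -5 to 41 in liver. Kcna2, and Kcna3 on 1 of its 2 probe sets, lay higher on every hippocampus array.

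Proteins that work with channels were read from a list of 51 genes, of which 28 were measured and 23 fitted. In the fit 20 were called higher in hippocampus, 0 lower and 3 not, beside 31.0% and 19.4% of all fitted probe sets called higher and lower. Dim genes could pass the filter through hippocampus alone, so this count too supports no general rule. They included Ank3, the ankyrin that holds sodium channels at the axon initial segment (199, 171 and 143 against 13 to 28, log2 difference 3.04), and Dlg4, the synaptic scaffold PSD-95 (580, 611 and 687 against 24 to 49, 4.02). Atp1b1, a subunit of the sodium pump, read 5849 to 6894 in hippocampus and 596 to 980 in liver (3.08). The 3 that were not called were the scaffold Dlg1 (0.56), the ubiquitin ligase Nedd4 (1.00 after rounding, just under 2-fold) and the sodium-calcium exchanger Slc8a1 (0.12). The repressor gene Rest was too dim for the fit, at 22, 21, -15 and 38 in hippocampus and -9 to 51 in liver.

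The diets were compared within the hippocampus to see whether oils that supply arachidonate or docosahexaenoate went with other levels of channel transcripts. With 1 array per diet and chip this is a description, and all oil arrays of a chip share 1 control array. Only the 25 members bright enough in hippocampus were counted. Of the 12 chip A members kept, 1 was past 2-fold with fungal oil and 1 with fish oil, and of the 13 on chip B, 1 was with fungal oil, 0 with fish oil and 0 with both oils. These were Cacna1c and Kcnc1, and each passed the filter only through 1 high oil array. The counts are therefore no support for an effect of diet. Over all kept probe sets, the share past 2-fold in either direction was 3.86% and 2.70% on chip A, and 6.66%, 8.95% and 6.14% on chip B. Between the 2 liver control RNAs, which ate the same diet, it was 5.33% on chip A and 15.7% on chip B. There 2 of the 16 channel probe sets kept in liver differed by over 2-fold, Kcnj3 with 73 and 31 and Kcna3 with 167 and 57.

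The largest ratio belonged to Cacna1c, the L-type calcium channel Cav1.2 that links depolarisation to gene expression. It read 22 in the control, 56 with fungal oil (log2 ratio 1.35) and 106 with fish oil (2.27), and 27 to 76 in liver. Only the fish oil array lay above the filter level of 60.7, which the hippocampus mean of 61.3 just passed. The control value lies close to the floor, so these ratios are fragile. With a floor of 37.5 they fell to 0.58 and 1.50, and against the mean of the other hippocampus arrays to 0.21 and 1.59. Only the fish oil ratio then stayed past 2-fold. No chip A array of both oils was analysed here, so Cacna1c has no value for that diet. In the same control, fungal oil and fish oil RNAs, the summed intensity of 6 genes of choroid plexus and meninges was 1298, 4601 and 2568, led by Ptgds (624, 3118 and 1843). Ttr, which marks choroid plexus, read 304, 490 and 157, and Folr1 read -37, 39 and -23. Past 2-fold were 3 of the 6 genes with fungal oil, among them Folr1, which was too dim to be kept, and 2 with fish oil. The part of such tissue in the channel values was not tested. The 10 neuron markers measured summed to 12271, 12199 and 12439, and 1 of them, the dim Camk2a (100, 41 and 6), was past 2-fold with each oil.

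Kcnc1 (Kv3.1), a channel of fast-spiking interneurons, was the other member past 2-fold. It read 39 in the control, 85 with fungal oil (1.12), 28 with fish oil and 34 with both oils, so the fungal oil array alone was high. Through that array alone its mean of 46.5 passed the filter level of 43.25. Of the 4 interneuron markers measured, Gad1 read 1834, 1913, 1888 and 1837 on the same arrays, Pvalb 418, 392, 460 and 441, and Sst 907, 1602, 1590 and 1930, so that Sst was higher on every oil array. Gad2, on chip A, read 48, 56 and 54. Their part in the Kcnc1 value was not tested.

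Other members differed by under 2-fold but in the same direction on each oil array. No gap in size parts them from members named further below as close to the control. Some of those also kept 1 direction, such as Clcn4 on chip A with 0.31 and 0.35. Scn8a read 106 in the control and 179 and 181 with fungal and fish oil, ratios of 0.76 and 0.77. Kcnj11 read 54, 84 and 102 (0.64 and 0.92), and Kcnh2 read 49, 64 and 82 (0.39 and 0.74). Kcna3 read 257 in the control, then 356, 306 and 421 with fungal oil, fish oil and both oils (0.47, 0.25 and 0.71). Lower on every oil array were Cacna1a, with 113 against 70, 68 and 58 (-0.69, -0.73 and -0.96), and Kcna1, with 595 against 475, 456 and 533 (-0.32, -0.38 and -0.16). The Kcnab3 value of 181 stood out with fungal oil alone (0.81), beside 103, 102 and 106 on the other arrays. Since each oil ratio is taken to the same control array, a control array that lies high or low for a gene turns all of them one way.

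Several bright members and some dimmer ones lay close to the control on each diet they were measured on. Kcnab2 lay within 0.20 of the control on the log2 scale with either oil, and Kcnma1 within 0.14. Clcn3, Kcnn1 and Clcn4 on chip B stayed within 0.18 with any diet. Kcnab1 ranged from -0.24 to 0.06. Kcnd2 read 0.17 and 0.10 above control with fungal and fish oil, and Kcnj9 0.18 and 0.27. Kcnk2, the 2-pore channel TREK-1 that arachidonate is known to open, read 75, 80 and 81 (0.09 and 0.11). Its liver arrays ran from 31 to 75. Clcn4 on chip A lay 0.31 and 0.35 above control. Kcnj3 and Cacna2d1 lay between -0.20 and 0.06, and Kcne1, Kcnj6, Kcnd1 and Scn1a on chip B between -0.12 and 0.38. Of the 30 members too dim to be kept, Clcn6 read 72 in the control, 38 with fungal oil and 24 with fish oil. Cacna1d and the second Kcnj11 probe set crossed the floor from below with each oil. Scn10a did so with fungal oil alone, from 12 to 31.

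**Figure D4:**
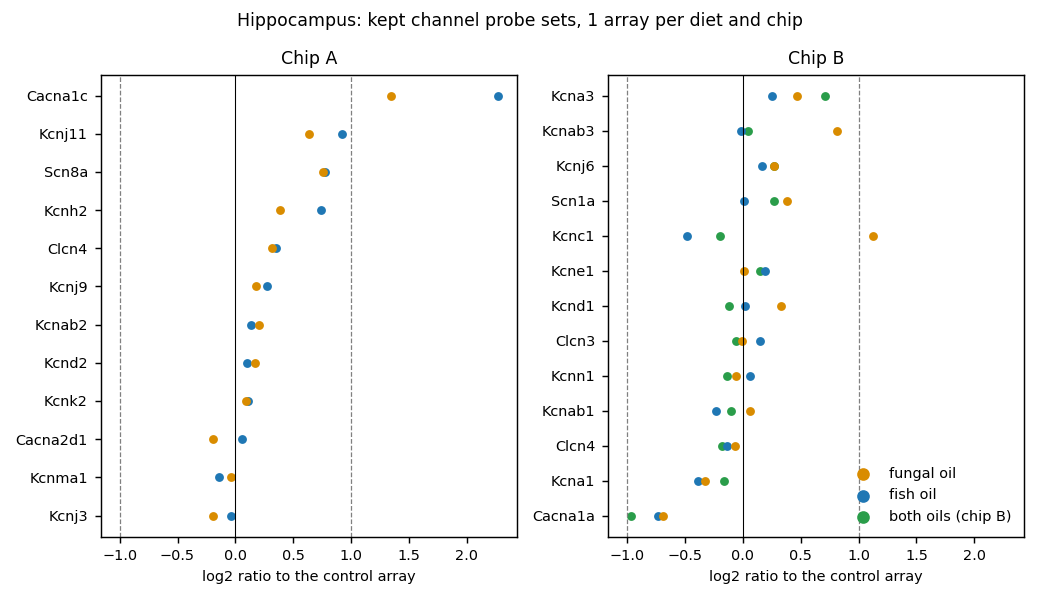
Log2 ratio of each oil array to the control array (horizontal axis) for the 12 chip A and 13 chip B channel probe sets kept in hippocampus, with 1 point per diet. Dashed lines mark 2-fold, which Cacna1c passed with both single oils and Kcnc1 with fungal oil.

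As a list, the kept members had a median log2 ratio of 0.19 with fungal oil and 0.20 with fish oil on chip A, where the medians of all kept probe sets were -0.03 and -0.01. In these, 9 and 10 of 12 lay above the control. On chip B the medians were 0.06, 0.01 and -0.10 with fungal oil, fish oil and both oils, against 0.03, 0.07 and 0.00 for all probe sets, with 8, 7 and 5 of 13 above the control. All ratios of a chip share its control array. The standard deviation of the members' ratios was 0.29 to 0.66, and that of all kept probe sets 0.41 to 0.67.

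Chip B held all 4 diets, so its hippocampus arrays could be fitted with limma as additive effects of the oils, whose error is the interaction of the oils on 1 residual degree of freedom. This called 0 of 13 channel probe sets for fungal oil and 0 of 13 for fish oil, and 0 of 3273 probe sets in all (0%). At an unadjusted p under 0.05 were 1 and 0 channel probe sets and 115 and 91 of all. The 1 was Kcna3, with a fungal oil effect of 0.47 (SE 0.16, adjusted p = 0.999). Cacna1a had effects of -0.46 (SE 0.39) for fungal oil and -0.50 (SE 0.39) for fish oil, and Kcnc1 of 0.70 (SE 0.67) and -0.90 (SE 0.67). The standard errors of both genes allow effects of either sign.

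Whether a diet's effect differed between the tissues was asked in a limma fit of tissue by diet, with the 2 liver controls as its only replicates. It called 0 of 50 pairs of channel probe set and diet and 0 of 16340 in all (0%), while 8 and 1898 had an unadjusted p under 0.05. The lowest adjusted p, 0.421, was shared by Scn8a, Kcnj9, Kcnab3 and Kcnma1. For Scn8a the hippocampus ratio exceeded the liver ratio by 0.77 with fish oil and 0.76 with fungal oil. All its liver values lie at the floor, so that difference is the hippocampus ratio itself.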

How the data were processed

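Each deposited value is an intensity, a whole number that can be negative. Its software and background method are not given in the sources used. The 55 control probe sets on each chip were dropped. Symbols came from the platform annotation, and all 49 member symbols match current RefSeq symbols by gene identifier.

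Intensities below 15 (0.1 times a trimmed mean of 150, trimming 2% at each end) were set to 15 and log2 was taken. Between tissues, arrays were first scaled to that trimmed mean. Probe sets at or above the median mean of their chip were kept. Fits used limma 3.58.1 in R 4.3.3 (lmFit, then eBayes with an intensity trend), per chip, with Benjamini-Hochberg adjustment. The tissue fit was adjusted over the kept probe sets of both chips, and it alone was tested on simulated data. The additive fit was adjusted over the kept chip B probe sets for each oil. The tissue by diet fit was adjusted over all pairs of kept probe set and diet on both chips. The tissue fit has 3 residual degrees of freedom on chip A and 4 on chip B. "At least N-fold" means that every array of the dimmer tissue is at or below the floor. N is then the smaller of the fold of the fitted difference and the fold of the brighter tissue's mean log2 over the floor.

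Named are members called between tissues, kept members past 2-fold or with the 3 largest ratios each way per diet, members kept in liver, and genes with several probe sets. Members and lists were chosen with earlier results of these data known, and the rule of no overlap and the tissue by diet fit were added after seeing the data. The number of arrays limits precision.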

Additional observations from a re-analysis of the deposited data

How the results depend on the processing

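Called differences between tissues kept their direction under each of 16 alternatives in which they were kept. The total of 14 channel probe sets (12 higher, 2 lower in hippocampus) became 23 (21 higher) without the filter on dim probe sets and 8 (7 higher, 1 lower) with a filter at the 75th percentile, which tests other numbers of probe sets by construction. All 6 members then missing were not kept. Leaving out any 1 RNA, quantile normalization, 0.5 or 2.5 times the floor, no intensity trend, no diet term and the mean over probe sets left counts within 1.5 times. The diet total of 3 became 9 without the filter and 0 at the 75th percentile. The additive fit called 0 under each of its alternatives.

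No paired analysis was possible because only the liver controls carry replicate numbers, so no number pairs RNAs across groups. The tissue fit did hold diet as a term, and without it the total was also 14. Signal over background is 1 limit, since 36 of 55 members were too dim for the tissue fit and 30 for the diets, and the single array per diet and chip is another.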
